A study of Mus musculus with 6 samples.

Results

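The 44 genes described here encode proteins that a cell needs for mitosis itself: the cyclins and kinase that start it, the spindle and its motors, the kinetochores, the spindle assembly checkpoint, the proteins that separate sister chromatids and those that divide the cytoplasm. They were chosen by gene symbol for their known roles, with earlier results of these data known. They are 44 of the 17854 genes in the deposited table. All 44 were found there, and all 44 were among the 14289 genes that passed the filter on low counts, so none was left out. In a dividing cell the cyclin-dependent kinase CDK1 and its cyclins drive entry into mitosis, chromosomes condense and attach through kinetochores to the spindle, and the checkpoint holds the anaphase-promoting complex (APC/C) back until every kinetochore is attached. The APC/C then marks cyclin B and securin for destruction, sisters separate, and the central spindle and an actomyosin ring split the cell. Most of these genes are transcribed mainly in G2 and mitosis, and adult articular chondrocytes are known as cells that seldom divide, so the level of these mRNAs in bulk RNA depends on how many cells are cycling as well as on each cell's level.

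Bulk RNA-seq was read in 6 libraries. The study describes 3 as Tomato+ cells derived from injected MSCs (MSC-derived) and 3 as Tomato+ cells native to the joint (endogenous). For the MSC-derived group, knee osteoarthritis was induced in male C57BL/6 mice of 8 weeks by transection of the anterior cruciate ligament, and Tomato+ MSCs sorted from the inguinal white adipose tissue of Prrx1-Cre; R26tdTomato mice were later injected into the joint. Tomato+ cells were then sorted from the knee cartilage. The endogenous group was sorted in the same way from male Prrx1-Cre; R26tdTomato mice of matched age, which had no injected cells. In both groups tdTomato was switched on by Cre under control of Prrx1, a gene of limb mesenchyme, and the label stays with all descendants of cells that once expressed it. The hosts of the injected cells carried no Cre of their own, whereas in the endogenous group the whole Prrx1 lineage of the joint was labelled. The groups thus differed in the origin of the cells, in the surgery and in the genotype of the host at the same time, and these cannot be told apart.

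Library totals ran from 22060628 to 24881796 expected counts. Without TMM factors, 3 counts, taken as the floor, were thus worth 0.121 to 0.136 per 1000000. CPM in this report are counts divided by the library total, as scaled with TMM factors, and given per 1000000. Among the endogenous libraries replicate 1 stood apart: 3459 genes had no count in it, against 1338 and 1395 in replicates 2 and 3. The spread between replicates, as edgeR's biological coefficient of variation, was 35.3% in the endogenous group and 6.77% in the MSC-derived group. Both groups carry the label chondrocyte, but the summed level of 11 chondrocyte markers was 1038 to 1092 CPM in the MSC-derived libraries and 52980 to 54830 CPM in the endogenous libraries, and all 11 were called lower in the MSC-derived cells. Marker lists of blood cells, like all lists here chosen with earlier results known, went the other way. All 14 erythroid markers were higher (25610 to 25880 CPM in sum, against 4151 to 6146), as were all 10 of granulocyte precursors (23910 to 24350 against 1361 to 1795), all 8 pan-leukocyte markers (6183 to 6272 against 261 to 344) and all 9 macrophage markers (12330 to 12540 against 69.1 to 83.5). Of the B cell and B precursor markers 8 of 11 were higher and 1 lower, of the T and NK cell markers 5 of 6 tested were higher, and of the megakaryocyte markers 1 of 5 was higher and 1 lower. Over all genes tested, 31.3% were called higher and 30.3% lower. No marker was at 0 in all libraries of a group. The erythroid and granulocyte precursor sums came mostly from a few genes. In MSC-derived replicate 1, Hba-a2, Hba-a1, Hbb-bs and Hbb-bt were at 9805, 6975, 5557 and 2467 CPM. The next erythroid marker, Slc4a1, was at 293.0 CPM there. In the same library Ngp, Ltf and Camp were at 13130, 4493 and 4328 CPM, and the next granulocyte precursor marker, Mpo, at 1094 CPM. The sums thus do not measure the number of dividing cells. Erythroid and granulocyte precursors and B precursors are cell types that divide, and the part of any of these cells in the mitotic genes below was not tested. In bulk samples, fewer cells of a type and less RNA per cell cannot be told apart.

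Mitotic genes were higher in the MSC-derived libraries almost throughout the list. These are the libraries with lower chondrocyte markers and higher erythroid, granulocyte precursor, macrophage and pan-leukocyte markers. Of the 44, 40 were called higher and 0 lower by edgeR's quasi-likelihood test at an adjusted p of 0.05, where 31.3% of all genes tested were called higher and 30.3% lower. The count of 0 lower was the same at an unadjusted p of 0.05 and in DESeq2 and limma. In CPM, all 3 MSC-derived libraries lay above all 3 endogenous libraries in 43 of the 44, which held for 38.2% of all genes tested. In the deposited TPM the groups overlapped in more of the 44, among them Bub1, Cenpe, Aurka, Nusap1, Espl1 and Smc4. Smc4 was at 20.03 TPM in endogenous replicate 1, against 18.28, 19.54 and 16.99 TPM in the MSC-derived libraries. The median log2 fold change (MSC-derived minus endogenous) was 1.51 over the 44 genes and 0.05 over all genes tested. In sum, the 44 genes took 1611 to 1634 CPM in the MSC-derived libraries and 563 to 694 CPM in the endogenous libraries. Of the 40 genes called, 36 differed by more than 2-fold, and 7 of the 44 by more than 4-fold. The 4 genes not called were Cdc25c, Espl1, Ect2 and Anln. Without endogenous replicate 1, 42 of the 44 were called higher, with a median log2 fold change of 1.59.

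**Figure D1:**
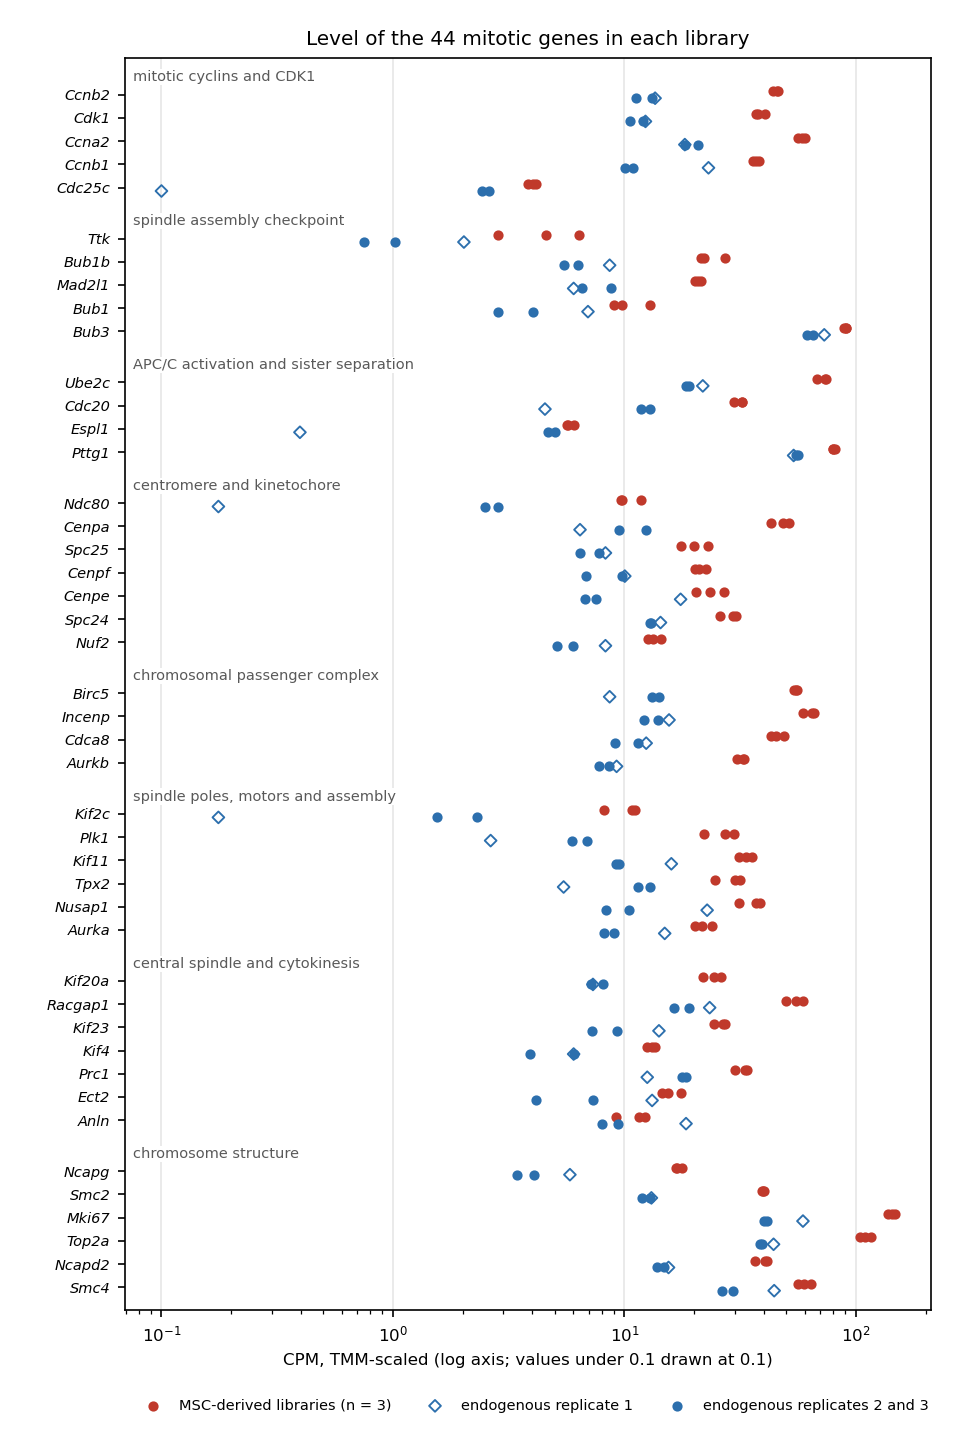
Level of each of the 44 mitotic genes in each library, as TMM-scaled CPM on a log axis, grouped by role. Each filled red point is an MSC-derived library (n = 3), open diamonds are endogenous replicate 1 and filled blue points are endogenous replicates 2 and 3. In 43 of the 44 genes the red points lie to the right of all blue symbols, and the exception is Anln. Cdc25c has no count in endogenous replicate 1 and is drawn at 0.1.

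**Figure D2:**
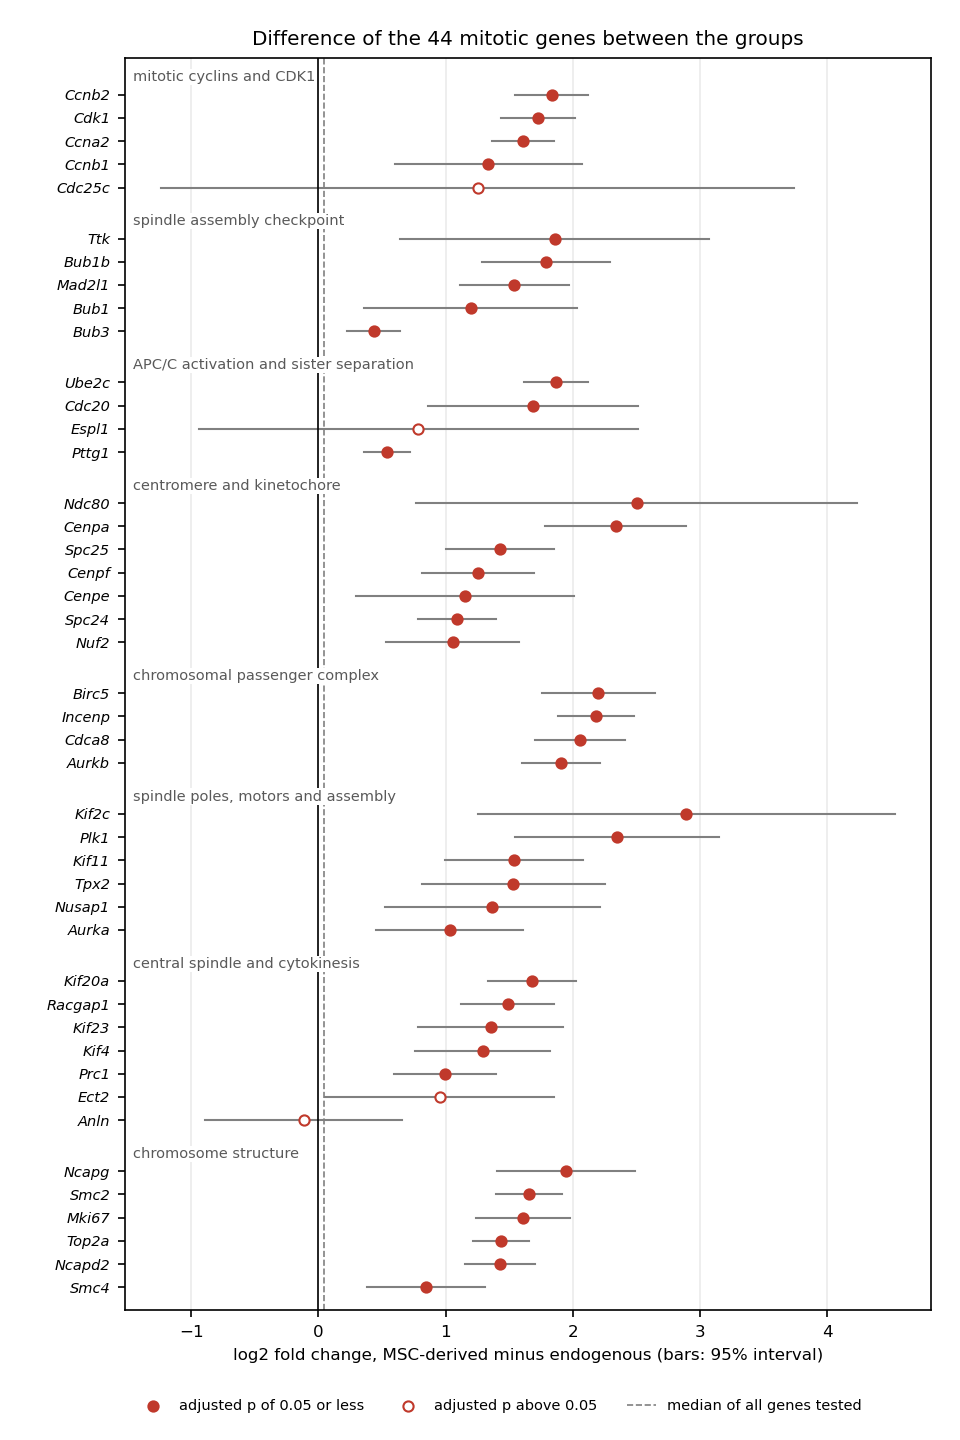
Log2 fold change of each of the 44 mitotic genes (MSC-derived minus endogenous) with its 95% interval, grouped by role. Filled points are the 40 genes called by edgeR's quasi-likelihood test, open points the 4 that missed the threshold, and the dashed line is the median of all genes tested, 0.05. The chromosomal passenger complex lies furthest to the right as a group, between 1.91 and 2.2, and the widest interval is that of Cdc25c.

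Many genes of this class are known to share promoter elements, the CCAAT box, bound by NF-Y, and the CHR element TTTGAA, bound by the MuvB complexes that repress them in resting cells and, with B-MYB and FOXM1, activate them before mitosis. RefSeq promoter windows (GRCm38.p6, 250 bases before to 50 after the start) were given for 36 of the 44 genes, in 39 windows, and both strands were searched for the letters of either element. The CHR letters stood in 28 of the 36 genes (77.8%), where they stood in 14.8% of the 11307 tested genes with a window and in 17.9% of all 32851 windows. The CCAAT letters stood in 28 of the 36 (77.8%), against 43% of the tested genes and 37.4% of all windows. Both were found in 25 of the 36 (69.4%), against 6.16% of the tested genes and 6.95% of all windows, and the motifs overlapped each other in 1 window, that of Cdca8. The letters are a description of these windows and not a measured binding site.

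To show how the motifs lie in genes with large, small and no called difference, 6 promoters are printed from 150 bases before to 30 bases after the start, 5′ to 3′ on the strand of the gene, with each match in capitals (TTCAAA and ATTGG are the same motifs on the other strand). They were chosen after the motif search. Ccnb2 (chr9:70421525-70421704, minus strand), Cenpa (chr5:30666736-30666915, plus strand) and Ube2c (chr2:164769779-164769958, plus strand) carried both motifs and rose more than 2-fold.
Ccnb2: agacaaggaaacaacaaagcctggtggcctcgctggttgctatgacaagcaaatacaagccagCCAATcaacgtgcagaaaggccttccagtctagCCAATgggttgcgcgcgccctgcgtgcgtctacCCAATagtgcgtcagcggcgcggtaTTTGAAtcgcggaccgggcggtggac
Cenpa: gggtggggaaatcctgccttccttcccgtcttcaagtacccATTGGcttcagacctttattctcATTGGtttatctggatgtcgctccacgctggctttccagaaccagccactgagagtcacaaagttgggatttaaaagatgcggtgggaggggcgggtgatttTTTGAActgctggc
Ube2c: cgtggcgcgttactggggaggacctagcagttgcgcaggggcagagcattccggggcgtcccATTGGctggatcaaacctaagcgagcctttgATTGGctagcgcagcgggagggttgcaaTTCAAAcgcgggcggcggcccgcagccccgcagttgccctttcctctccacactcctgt
Bub3 (chr7:131560220-131560399, plus strand) and Espl1 (chr15:102296143-102296322, plus strand) also carried both motifs, but Bub3 had the smallest called difference of the 40 genes and Espl1 was not called.
Bub3: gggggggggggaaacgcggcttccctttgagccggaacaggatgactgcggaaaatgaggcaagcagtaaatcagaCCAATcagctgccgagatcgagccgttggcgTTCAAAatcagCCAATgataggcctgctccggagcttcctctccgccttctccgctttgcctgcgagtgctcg
Espl1: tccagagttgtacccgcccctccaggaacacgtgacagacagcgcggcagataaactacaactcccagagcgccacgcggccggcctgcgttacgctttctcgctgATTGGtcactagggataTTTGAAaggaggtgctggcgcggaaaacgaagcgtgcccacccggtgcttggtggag
Birc5 (chr11:117849087-117849266, plus strand), one of the 7 genes that differed by more than 4-fold, had neither set of letters in its window.
Birc5: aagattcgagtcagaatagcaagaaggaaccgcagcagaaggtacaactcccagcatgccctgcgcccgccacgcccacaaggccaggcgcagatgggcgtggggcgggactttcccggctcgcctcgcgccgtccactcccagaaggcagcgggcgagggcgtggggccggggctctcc
The 25 genes with both motifs had a median log2 fold change of 1.54, with 23 called higher, and the 5 genes with neither (Birc5, Mad2l1, Nuf2, Nusap1 and Pttg1) had a median of 1.37, with all 5 called higher. Over all genes tested, 35.9% of the 696 genes with both motifs were called higher, and 30.9% of the 5595 with neither. The 696 include the 25 genes above and 24 genes of a wider mitotic list described below, with 23 and 14 called higher. The 5595 include the 5 genes above and 30 of that wider list, with 5 and 16 called higher.

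Cyclins and CDK1 start mitosis. Ccnb2, which encodes cyclin B2, was at 43.9, 45.6 and 45.9 CPM in the MSC-derived libraries and at 13.6, 11.2 and 13.2 CPM in the endogenous libraries. The 3 MSC-derived values lay close together and far above the endogenous ones, a log2 fold change of 1.83 (SE 0.12, adjusted p = 9.18e-06). Cdk1, the kinase itself, differed by 1.73 on the log2 scale (SE 0.12) and Ccna2, cyclin A2, by 1.61 (SE 0.10). Ccnb1, cyclin B1, differed by 1.33 with a wider error (SE 0.31, adjusted p = 0.0075), since endogenous replicate 1, at 23.1 CPM, lay well above replicates 2 and 3, at 10.04 and 10.84 CPM. Cdc25c, the phosphatase that activates CDK1, had 103, 93 and 95 counts in the MSC-derived libraries and 0, 55 and 62 in the endogenous libraries. The groups did not overlap, but the library without a count left the log2 fold change of 1.25 with an SE of 1.06 and an adjusted p of 0.336. With endogenous replicate 1 left out, the difference of Cdc25c was 0.61 on the log2 scale and was called (adjusted p = 0.0429).

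All 5 checkpoint genes were called higher on the CPM scale, among them Bub3, whose difference was -0.0040 on the log2(TPM + 1) scale when the deposited TPM were tested in place of the counts. Ttk, the kinase MPS1 that switches the checkpoint on, had 2.85, 4.59 and 6.34 CPM in the MSC-derived libraries and 2.03, 1.02 and 0.753 CPM in the endogenous libraries. These are low levels with unequal replicates in both groups. Its log2 fold change was 1.86 (SE 0.52, adjusted p = 0.016), and the call was lost without MSC-derived replicate 2 (adjusted p = 0.0524), MSC-derived replicate 3 (0.0793) or endogenous replicate 2 (0.053). Bub1, a kinase that recruits checkpoint proteins to the kinetochore, was at 8.99, 9.80 and 12.9 CPM against 6.96, 2.83 and 4.02 CPM. The gap between the groups was narrow, from 6.96 to 8.99 CPM, and the log2 fold change of 1.2 (SE 0.36, adjusted p = 0.0212) did not pass when MSC-derived replicate 2 (adjusted p = 0.0522), MSC-derived replicate 3 (0.084) or endogenous replicate 3 (0.0666) was left out. Bub1b, which encodes the APC/C inhibitor BUBR1, differed by 1.79 (SE 0.21) and Mad2l1, MAD2, by 1.54 (SE 0.18). Bub3, which binds both BUB1 and BUBR1, stood at 88.8, 90.4 and 90.5 CPM in the MSC-derived libraries and at 73.0, 61.7 and 65.0 CPM in the endogenous libraries. The groups did not overlap, yet the log2 fold change of 0.43 (SE 0.09, adjusted p = 0.0042) was the smallest called difference of the 44 genes. In TPM, Bub3 was the highest of the 5 genes, with 61.2 ± 0.58 TPM in MSC-derived and 62.0 ± 10.4 TPM in endogenous libraries (SD, n = 3 each).

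Of the 4 genes of APC/C activation and sister separation, 3 were called higher. Ube2c, a ubiquitin-conjugating enzyme that works with the APC/C, was at 73.3, 74.6 and 68.2 CPM in the MSC-derived libraries and at 21.8, 18.5 and 19.0 CPM in the endogenous ones. Neither group spread by more than a few CPM, and the log2 fold change of 1.87 (SE 0.11, adjusted p = 4.18e-06) carried one of the smallest adjusted p-values of the 44 genes. Cdc20, the APC/C activator that the checkpoint inhibits, differed by 1.69 (SE 0.35, adjusted p = 0.0043). Pttg1, which encodes securin, was at 81.3, 79.4 and 79.9 CPM against 53.8, 55.2 and 56.5 CPM. Its difference was small but well outside the replicate spread, at 0.54 (SE 0.08, adjusted p = 0.00059). In TPM, which allows levels of different genes to be set side by side, Pttg1 had the highest level of the 44 in both groups, 174.8 ± 3.59 in the MSC-derived and 148.0 ± 9.93 in the endogenous cells (SD, n = 3). Espl1, the separase that securin restrains, had 144, 147 and 131 counts against 9, 113 and 112. In counts and CPM, endogenous replicates 2 and 3 lay just below the MSC-derived libraries and replicate 1 far below. The log2 fold change of 0.78 (SE 0.73, adjusted p = 0.382) was not called. In TPM, endogenous replicates 2 and 3, at 1.29 and 1.22, lay above the MSC-derived libraries, at 1.12, 1.21 and 1.13. Without endogenous replicate 1 the difference of Espl1 was 0.21 and was again not called (adjusted p = 0.374).

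Kinetochores link each centromere to spindle microtubules, and 7 of 7 kinetochore and centromere genes were called higher. Ndc80, the microtubule-binding subunit of the outer kinetochore, had 248, 239 and 271 counts in the MSC-derived libraries and 4, 64 and 60 in the endogenous libraries. All endogenous values were low, with replicate 1 close to the floor. The log2 fold change of 2.50 (SE 0.74, adjusted p = 0.0203) fell to 1.91 without endogenous replicate 1, with an adjusted p of 4.73e-08. When an MSC-derived library was left out instead, the call of Ndc80 was lost each time (adjusted p = 0.0565, 0.057 and 0.0688 without replicates 1, 2 and 3). Its partner in the same complex, Nuf2, was at 14.4, 12.7 and 13.3 CPM against 8.28, 5.13 and 5.98 CPM. There the libraries of each group lay closer together and replicate 1 was the highest endogenous value, and the difference of 1.06 (SE 0.22, adjusted p = 0.0046) was the smallest of the 7. The other 2 subunits of that complex, Spc24 and Spc25, differed by 1.09 (SE 0.13) and 1.43 (SE 0.18). Cenpa, the histone variant that marks the centromere, differed by 2.34 (SE 0.24, adjusted p = 9.46e-05), and by 2.07 without endogenous replicate 1. Cenpf, a large protein of the outer kinetochore, differed by 1.25 (SE 0.19). Cenpe, a kinesin that carries chromosomes to the spindle equator, was at 23.4, 26.9 and 20.3 CPM against 17.5, 6.76 and 7.57 CPM. Endogenous replicate 1 came near the MSC-derived range, and the log2 fold change of 1.15 (SE 0.36, adjusted p = 0.0269) was called without endogenous replicate 1 (2.59e-09) but missed the threshold without any one of the other 5 libraries (adjusted p = 0.052 to 0.0893).

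The chromosomal passenger complex corrects faulty attachments and then moves to the central spindle. Its 4 genes had the largest median difference of the 8 role groups, 2.12, and none of them differed by less than 1.91. Birc5, which encodes survivin, was at 54.1, 55.2 and 55.9 CPM in the MSC-derived libraries and at 8.63, 13.1 and 14.1 CPM in the endogenous libraries. Replicate 1 was the lowest endogenous library, all 3 lay far below the MSC-derived ones, and the log2 fold change was 2.2 (SE 0.19, adjusted p = 3.76e-05). Incenp, the scaffold of the complex, differed by 2.18 (SE 0.13, adjusted p = 4.47e-06) and Cdca8, borealin, by 2.05 (SE 0.15, adjusted p = 1.52e-05). Aurkb, its kinase Aurora B, was at 32.6, 30.6 and 33.0 CPM against 9.25, 7.78 and 8.62 CPM. It had the smallest difference of the 4, with a tight spread in both groups, at 1.91 (SE 0.13, adjusted p = 1.12e-05). All 4 stayed called in every alternative tried.

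All 6 genes of spindle poles, motors and spindle assembly were called higher. Kif2c, the kinesin MCAK that takes microtubules apart at the centromere, had 276, 271 and 186 counts in the MSC-derived libraries and 4, 35 and 55 in the endogenous ones. It had the largest log2 fold change of the 44 genes, 2.89 (SE 0.70, adjusted p = 0.0085), which fell to 2.32 without endogenous replicate 1 (adjusted p = 2.97e-08). Plk1, a kinase that acts from mitotic entry to cytokinesis, differed by 2.35 (SE 0.34, adjusted p = 0.0007), Kif11, the motor that pushes the poles apart, by 1.54 (SE 0.23), Tpx2, which activates Aurora A on the spindle, by 1.53 (SE 0.31) and Nusap1, a microtubule bundling protein, by 1.37 (SE 0.36, adjusted p = 0.0126). Aurka, Aurora A itself, was at 20.2, 21.6 and 24 CPM against 14.9, 8.14 and 9.04 CPM. Replicate 1 was the highest endogenous library and the difference was the smallest of the 6, at 1.03 (SE 0.25, adjusted p = 0.008).

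Among the 7 genes of the central spindle and cytokinesis, 5 were called higher, and 2 of the 4 genes not called belong here. Kif20a, a kinesin of the central spindle, was at 24.5, 21.8 and 26.2 CPM in the MSC-derived libraries and at 7.31, 8.09 and 7.20 CPM in the endogenous libraries. The endogenous libraries lay within 1 CPM of each other, and the log2 fold change of 1.68 (SE 0.15, adjusted p = 4.13e-05) was the largest of the 7. Racgap1 and Kif23, the 2 subunits of centralspindlin, differed by 1.49 (SE 0.15) and 1.35 (SE 0.24), Kif4, a kinesin of chromosome arms and the midzone, by 1.29 (SE 0.23) and Prc1, which bundles the antiparallel microtubules of the midzone, by 0.99 (SE 0.17, adjusted p = 0.0017). Ect2, the exchange factor that turns on RhoA at the cell equator, was at 17.6, 15.4 and 14.6 CPM against 13.2, 4.16 and 7.28 CPM. No endogenous library reached the MSC-derived range, but replicate 1 came near it, and the log2 fold change of 0.95 (SE 0.38) missed the threshold with an adjusted p of 0.0638. It was called without endogenous replicate 1, at 1.42 on the log2 scale (adjusted p = 1.32e-06), and in 5 of the other alternatives. Anln, the scaffold anillin of the contractile ring, was at 12.2, 11.6 and 9.18 CPM against 18.5, 8.003 and 9.37 CPM. It was the only one of the 44 whose groups overlapped in CPM, with the highest value of all in endogenous replicate 1. Its log2 fold change was -0.12 (SE 0.33, adjusted p = 0.776, 95% interval -0.89 to 0.66). The sign of the Anln difference turned without endogenous replicate 1 (0.29, adjusted p = 0.125) and without MSC-derived replicate 3 (0.01, adjusted p = 0.99), and no alternative called it.

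Chromosome structure genes were all called higher, 6 of 6. Ncapg, a subunit of condensin I, was at 16.7, 16.9 and 17.7 CPM in the MSC-derived libraries and at 5.82, 4.07 and 3.43 CPM in the endogenous libraries, a log2 fold change of 1.95 (SE 0.23, adjusted p = 0.00023). Its partner Ncapd2 differed by 1.42 (SE 0.12). The 2 ATPases that condensin I and II share differed unequally: Smc2 by 1.66 (SE 0.11, adjusted p = 9.14e-06) and Smc4 by 0.85 (SE 0.20, adjusted p = 0.0071). Smc4 was at 59.9, 64.1 and 56.2 CPM against 44.4, 26.3 and 29.6 CPM, so endogenous replicate 1 lay well above the other endogenous libraries, whereas Smc2 was between 11.9 and 13.1 CPM in all 3. Mki67, the proliferation marker Ki-67 that coats mitotic chromosomes, was at 137.5, 146.9 and 143.7 CPM against 59.1, 41.3 and 40.0 CPM. In CPM, every MSC-derived library held more than double the level of any endogenous one, a log2 fold change of 1.61 (SE 0.16, adjusted p = 7.51e-05). The gap of Mki67 was narrower in TPM, at 18.1, 19.4 and 18.7 against 11.5, 7.0 and 6.84. Top2a, the topoisomerase that untangles sister chromatids, differed by 1.44 (SE 0.09, adjusted p = 8.4e-06).

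The spread of these genes was unequal between the groups, whereas edgeR's test fits each gene with the same dispersion in both. The coefficient of variation of CPM over 3 libraries had a median of 6.19% in the MSC-derived group and 24.2% in the endogenous group, and it was larger in the endogenous group for 40 of the 44 genes. Endogenous replicate 1 was the highest of the 3 endogenous libraries for 29 of the 44 and the lowest for 13, where over all genes tested it was the highest for 42.8% and the lowest for 47.3%. The 13 included Cdc25c, Espl1, Ndc80 and Kif2c, the genes with the largest standard errors, and the 29 included Ect2, Anln, Cenpe and Bub1. Across the 44 genes the ratio of replicate 1 to the mean of replicates 2 and 3 went down with the GC content of the gene's longest coding transcript (Spearman's rho = -0.437), as it did across 13766 genes with a known GC content (rho = -0.314). Genes are not independent replicates and the 44 share these libraries, so the correlation is given as a description. The log2 fold change between the groups had a rho of 0.307 with GC content over the 44 genes and of -0.0044 over all. The part of GC content in the differences was not tested.

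**Figure D3:**
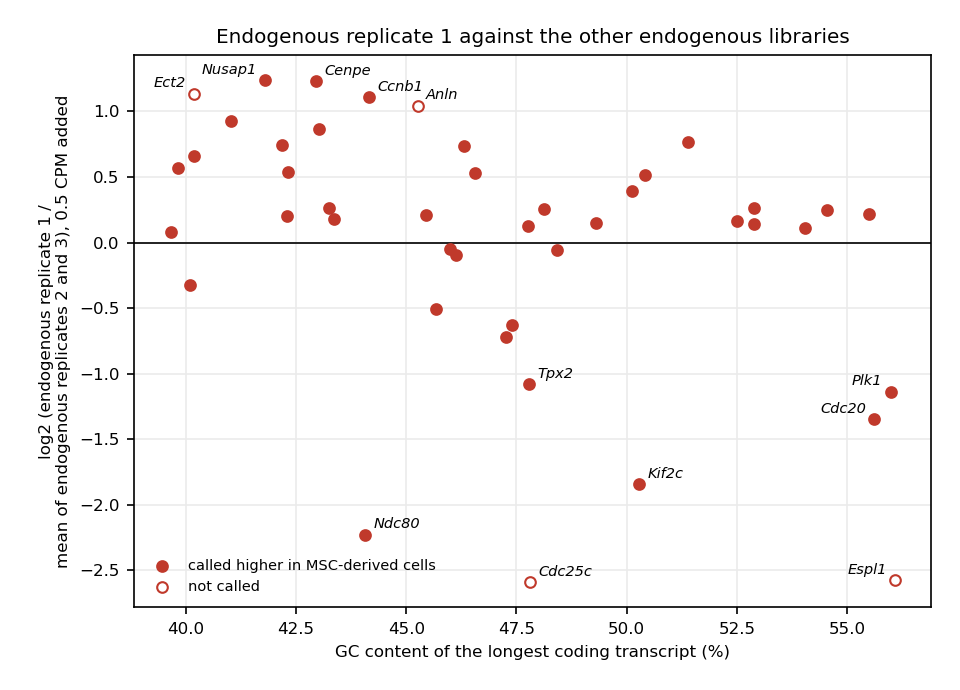
Ratio of endogenous replicate 1 to the mean of endogenous replicates 2 and 3 for each of the 44 mitotic genes (log2, with 0.5 CPM added) against the GC content of the longest coding transcript in percent. Each point is 1 gene, and open points are the 4 genes not called. Cdc25c and Espl1 lie lowest, at -2.59 and -2.58, and Ect2 and Anln lie above 1, at 1.14 and 1.04.

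A wider list held 115 other mitotic genes. Of these, 60 were called higher and 8 lower, with a median log2 fold change of 0.99, again beside 31.3% and 30.3% of all genes. Other kinetochore and centromere genes were higher in 20 of 32 and lower in 1, Cenpp, with a median of 1.27. Condensin subunits outside the 44 were higher in 4 of 4, kinesins in 5 of 7, and cytokinesis genes in 5 of 6, led by Depdc1b with 2.84. Centrosome and spindle genes were higher in 11 of 24, with Gtse1, a microtubule-binding protein of G2, at 2.56, and regulators of entry and exit in 8 of 12, with 1 lower, Wee1, the kinase that inhibits CDK1 (log2 fold change -0.71, SE 0.23, adjusted p = 0.0283).

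Subunits and regulators of the APC/C and of cohesin were called in both directions, in shares no larger than those of all genes tested. Of 17 APC/C subunits and regulators 4 were called higher (23.5%, beside 31.3% of all genes) and 5 lower (beside 30.3% of all genes), with a median of -0.07. The 4 higher were the subunits Anapc15, at 1.71 on the log2 scale, and Anapc13, at 0.56, the activator Fzr1, at 1.16, and the inhibitor Fbxo5, EMI1, at 1.51. The 5 lower were the subunits Anapc4, Anapc5, Cdc16, Cdc23 and Cdc26, with Cdc16 at 39.4, 41.3 and 41.5 CPM in the MSC-derived libraries and 78.9, 87.5 and 93.5 CPM in the endogenous ones (log2 fold change -1.09, SE 0.10). This stood beside the rise of Ube2c and Cdc20, an enzyme and an activator that work with the same complex. Ube2s, of the same list, was not called (log2 fold change -0.04, SE 0.15). Among 13 genes of cohesin and its regulators 3 were higher (23.1%, beside 31.3% of all genes). In this list 1, Pds5b, was lower (beside 30.3% of all genes), and the median was 0.07. The ring subunits Smc1a, Smc3 and Rad21 had log2 fold changes of -0.06, -0.01 and 0.19 and were not called. Those higher were Mau2 and the mitotic regulators Sgo1, shugoshin, at 1.83 and Cdca5, sororin, at 1.49.

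**Figure D4:**
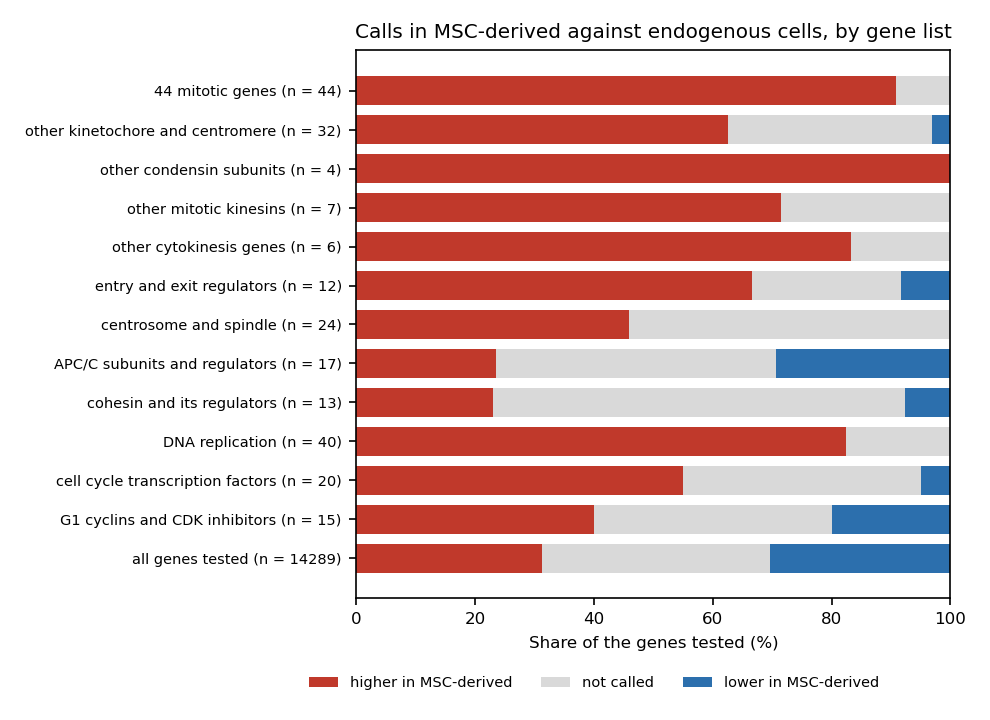
Share of the genes tested in each list that were called higher (red), not called (grey) or called lower (blue) in MSC-derived against endogenous cells by edgeR's quasi-likelihood test. The bar of the 44 mitotic genes holds 90.9% higher and no blue, that of the APC/C subunits 23.5% higher, and the bar of all 14289 genes tested 31.3% higher and 30.3% lower.

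Of 20 transcription factors and cofactors of the cell cycle, 11 were called higher and 1 lower, with a median log2 fold change of 1.04, beside 31.3% and 30.3% of all genes tested. Foxm1, which activates many of the 44 genes, was at 19.0, 15.8 and 22.9 CPM in the MSC-derived libraries and at 8.94, 8.53 and 6.74 CPM in the endogenous libraries (log2 fold change 1.25, SE 0.20, adjusted p = 0.0012). Mybl2, B-MYB, was at 22.8, 21.2 and 17.3 CPM against 0.352, 5.97 and 6.53 CPM (2.25, SE 0.76, adjusted p = 0.0339), with endogenous replicate 1 again the lowest. Of the MuvB subunits, Lin54, which contacts the CHR element, differed by 0.56 (SE 0.17, adjusted p = 0.0211) and Rbbp4 by 0.45 (SE 0.08), both called higher. Lin9, Lin37 and Lin52 were not called, with log2 fold changes of 1.47 (adjusted p = 0.256), 1.35 (adjusted p = 0.266) and 0.23 (adjusted p = 0.241), and Lin9 and Lin37 had 0 and 1 counts in endogenous replicate 1. E2f1, E2f2, E2f4 and E2f8 rose, by 2.14, 1.98, 1.15 and 1.82 on the log2 scale. E2f3, E2f6 and E2f7 were not called, with log2 fold changes of 0.27, 0.13 and 0.92, and E2f5 was lower, by -1.33 (SE 0.17).

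DNA replication genes, which act earlier in the cycle, were called higher by edgeR's test in 33 of 40 (82.5%). Over all genes tested, 31.3% were called higher and 30.3% lower. No replication gene was called lower, also at an unadjusted p of 0.05, and their median log2 fold change was 1.14. Tk1, thymidine kinase, led them at 2.25 (SE 0.15) and Mcm2, a subunit of the replicative helicase, differed by 1.96 (SE 0.12). TTTGAA stood in the window of 16.1% of the 31 replication genes with one, near the 14.8% of all tested genes, and CCAAT in 61.3%. In the other mitotic genes TTTGAA stood in 36.7% and both motifs in 24.5% of 98 genes, between the 69.4% of the 44 genes and the 6.16% of all tested genes. The 24 other mitotic genes with both motifs had a median log2 fold change of 1.34, with 14 called higher (58.3%), and the 30 with neither a median of 0.41, with 16 called higher (53.3%).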

How the data were processed

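Tomato+ cells of 3 MSC-derived and 3 endogenous libraries were sequenced as bulk RNA, and groups and replicate numbers were taken from the sample titles. The study's methods give SOAPnuke for read filtering, HISAT2 for alignment, Bowtie2 against a gene set and RSEM for quantification, and the submitters' processing notes list build mm9, Bowtie2 2.2.5 and RSEM 1.2.12. Expected counts, not normalized, were deposited by the authors for 17854 genes. FPKM, per transcript length and library size, were also deposited, as were TPM, which have the same sum in every library. The 18 columns used were matched by name, with 0 per-sample columns without a sample. The table gives no coordinates, so positions come from RefSeq on GRCm38.p6 and were matched by symbol.

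Expected counts were rounded (20.6% of values changed) and tested over all genes with edgeR 4.0.16 in R 4.3.3: filterByExpr, TMM factors, glmQLFit and glmQLFTest, with Benjamini-Hochberg adjustment over 14289 genes and a threshold of 0.05. A gene is called when it passes. SE is the log2 fold change divided by the root of F, and the 95% interval uses the fit's degrees of freedom. The procedure was also tested on simulated data with known changes. There both groups had the same spread for each gene, unlike in these libraries, so it does not cover unequal spread. Alternatives were DESeq2 1.42.0, other scaling factors, other filters, a replicate block, each library left out, a threshold of 0.001, and limma 3.58.1 on log2 FPKM with 1 or 0.1 added. A limma fit on log2(TPM + 1) was chosen after seeing the data. Plots were made in matplotlib 3.10.9.

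The members and all gene lists were chosen with earlier results of these data known. Values in every library are given for the genes with the largest and smallest difference of each role group, those not called and those whose call an alternative changed. Outside the members, names were limited to extremes, genes against their list's direction and the FOXM1, B-MYB, LIN54 and E2F factors. As exceptions, Anapc13, Anapc15, Fzr1, Fbxo5, Ube2s, Lin9, Lin37, Lin52, Rbbp4, Gtse1, Smc1a, Smc3, Rad21, Mau2, Sgo1, Cdca5 and Mcm2 were named after their values were seen. The methods give 3 mice per group, and where libraries do not stand for separate mice, p-values measure only the spread between samples, which may be technical. Floors of 3 counts cover counting error only.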

Additional observations from a re-analysis of the deposited data

How the results depend on the processing

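Of the 40 mitotic genes called higher, 32 were called in all 16 alternatives other than the threshold, and 24 passed a threshold of 0.001, at which 17 of the other mitotic genes were higher and 2 lower and, over all genes, 2134 were higher and 2380 lower. Leaving out each library in turn called between 36 and 42 of the 44. For the other mitotic genes called lower, 8 as reported, the count was 4 with library sizes only, 4 with either FPKM scale and 17 on the TPM scale, and 4 to 13 with a library left out, the last without endogenous replicate 1. On the log2(TPM + 1) scale the median of all genes was -0.28, against 0.05 as reported, 0.16 with library sizes only, and 0.13 and 0.19 in FPKM with 1 and 0.1 added. The members' median in TPM was 0.97, 33 were called higher, and the split over all genes was 3124 higher and 5962 lower, against 4468 and 4333. Bub1, Ttk, Cenpe, Nuf2, Aurka and Smc4 missed the threshold there (adjusted p of limma 0.0584 to 0.158) and Bub3 turned to -0.00398 (adjusted p = 0.978). The cause was not tested. Anln, not called, ran from -0.36 to 0.29 with a library left out, being 0.00655 without MSC-derived replicate 3 and 0.288 without endogenous replicate 1. Same-numbered replicates are different mice, their deviations correlated by 0.0022 to 0.0178, and with the replicate block 40 members were called higher, Ttk being lost (adjusted p = 0.056) and Ect2 gained (adjusted p = 0.033).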

Other observations

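Of 15 G1 cyclins, their kinases and CDK inhibitors, which the mitotic genes do not include, 6 were called higher (40%) and 3 lower, with a median log2 fold change of 0.38, where 31.3% of all genes tested were called higher and 30.3% lower. The CDK inhibitors Cdkn1c, p57, and Cdkn1a, p21, had the largest negative values. Cdkn1c was at 8.64, 7.83 and 8.04 CPM in the MSC-derived libraries and at 69.8, 97.8 and 95.6 CPM in the endogenous libraries (log2 fold change -3.42, SE 0.16), and Cdkn1a at 169.3, 160.1 and 155.9 CPM against 585.9, 693.1 and 720.0 CPM (-2.04, SE 0.09). The groups did not overlap for either gene. Ccnd1, cyclin D1, was lower too (-0.69, SE 0.09), whereas Cdkn2d, an inhibitor of CDK4 and CDK6, and Ccne1, cyclin E1, had the largest positive values, 1.40 (SE 0.20) and 1.24 (SE 0.45).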
